A study of Homo sapiens with 3 samples.

Results

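Aminoacyl-tRNA synthetases join each amino acid to its own tRNA, the step that supplies the ribosome with charged tRNA. Human cells carry a cytosolic set and a mitochondrial set, both encoded in the nucleus, and most amino acids have a separate gene for each compartment. Several cytosolic enzymes sit together in the multisynthetase complex, held by the scaffold proteins AIMP1, AIMP2 and EEF1E1. When amino acids run short, uncharged tRNA activates the kinase GCN2, and the transcription factor ATF4 is known to transcribe many cytosolic synthetase genes as part of that response.

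The genes described here are 40 members of this family, taken by name from the 58735 genes in the files. They were 20 cytosolic enzymes, 16 mitochondrial enzymes (names that end in 2), the 3 scaffold proteins, and TARSL2, a threonyl enzyme that is neither the main cytosolic nor the mitochondrial gene. All 40 had a mean CPM (the usual depth-scaled count unit) of at least 1, as did 13984 genes in all, so none was lost to a filter on low values. GARS and KARS each encode the cytosolic and the mitochondrial form from 1 gene and are counted with the cytosolic set.

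RNA-sequencing was performed on 3 libraries of A549, an established human lung adenocarcinoma line cultured in F12K medium with serum, with 1 library per condition. DDX24-sh1 and DDX24-sh2 came from cells with 2 different shRNAs against DDX24, a DEAD-box RNA helicase, and Control-sh from the control cells. The study's methods describe stable cells made with lentiviral pLKO.1 vectors and puromycin, and the control is named there as empty vector and elsewhere as a control shRNA, so its exact construct is not known. The libraries held 17218884 (Control-sh), 18337471 (DDX24-sh1) and 17847190 (DDX24-sh2) counts. Epithelial keratin KRT8 (64704, 69499 and 63926 counts) and the A549-typical enzyme ALDH1A1 (96250, 101755 and 106051 counts) were abundant in every library, EPCAM was scarce (32, 29 and 29 counts), and the haematopoietic gene PTPRC had 0 counts in all 3.

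The shRNA labels of the counts and of the deposited FPKM values did not match. Among genes with at least 50 counts, FPKM times length over count stayed within 1% of a constant for 100% of genes in Control-sh. For the shRNA libraries this held when the labels were exchanged (100% both ways), and for 5.23% and 5.17% of genes with the labels as given. The names DDX24-sh1 and DDX24-sh2 below are those of the count files, and which naming is right is not known. Counts of a gene are given in the order Control-sh, DDX24-sh1, DDX24-sh2, and log2 ratios and their intervals in the order DDX24-sh1, DDX24-sh2. Every log2 ratio is relative to Control-sh, from counts scaled with TMM, and its interval is the exact 95% binomial interval from the 2 counts. The interval covers counting error only, because no condition has a replicate and no test between conditions was possible. Both ratios of a gene share the control library, so the state of that single culture and an effect of the shRNAs cannot be told apart. Nor can less RNA per cell be told apart from fewer cells that express a gene in these bulk libraries.

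The target of the shRNAs was examined first. DDX24 had 2010, 637 and 765 counts. Its scaled level was 29.6% and 36.0% of the control (log2 -1.75, interval -1.89 to -1.63, and -1.47, interval -1.60 to -1.35), so both shRNA libraries carried the labelled depletion.

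The C/EBP-ATF element, the DNA motif that ATF4 binds together with C/EBP factors, was searched in the promoters of the members. The letters searched were TGATGNAA on both strands, and its strict form TGATGCAA, which is a subset of the first. The windows ran from 250 bases before to 50 bases after each RefSeq start (GRCh38.p14), and 33 of the 40 members had at least 1 window. No window was listed for AARS2, DARS, LARS, TARSL2, VARS, VARS2 and YARS. The strict form was present for 6 of the 16 cytosolic genes with a window, for 0 of 14 mitochondrial genes and for 0 of 3 scaffold genes. Over all 27305 genes with a window, 1.08% held the strict form and 4.46% the looser form. The cytosolic matches are printed to show where the letters lie, as 30 bases in the direction of the gene, 5′ to 3′, with the matched letters in capitals. A match on the other strand reads TTGCATCA, or TTTCATCA for the looser match of GARS.
AARS: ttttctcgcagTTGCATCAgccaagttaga
CARS: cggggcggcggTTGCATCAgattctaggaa
IARS: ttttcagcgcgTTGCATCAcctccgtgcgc
MARS: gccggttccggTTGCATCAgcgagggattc
NARS: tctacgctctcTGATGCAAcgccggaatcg
TARS: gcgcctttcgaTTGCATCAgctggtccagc
GARS: ttacgcggcgaTTTCATCAtgctccgagcc

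On GRCh38.p14 the AARS stretch is chr16:70289675-70289704 (minus strand), with the match beginning 187 bases before the start. The CARS stretch is chr11:3057407-3057436 (minus strand) and the IARS stretch chr9:92293692-92293721 (minus strand), 2 and 13 bases before the start. The MARS stretch is chr12:57488053-57488082 (plus strand), 4 bases before the start. In NARS, at chr18:57621804-57621833 (minus strand), the match began 14 bases after the start, and in TARS, at chr5:33440956-33440985 (plus strand), 2 bases after it. The looser match of GARS lies at chr7:30594834-30594863 (plus strand), 33 bases before a start. Among mitochondrial genes only YARS2 held the looser form, at chr12:32756076-32756105, 197 bases before the start. These are matches of letters, and no binding was measured here.

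As a set the cytosolic enzymes were lower in both shRNA libraries, while the mitochondrial enzymes stayed near the control. The 20 cytosolic enzymes had medians of -0.39 and -0.30 on the log2 scale, and the 16 mitochondrial enzymes had -0.02 and 0.05. Over all 13984 genes the medians were -0.02 and -0.03. Of the 20 cytosolic enzymes, 7 were at least 1.5-fold lower in DDX24-sh1, where 8.25% of all genes were, and 5 in DDX24-sh2, where 9.51% were. The same 1.5-fold limit was met in both libraries by 5 cytosolic enzymes (background 4.72%) and by 0 mitochondrial ones, and 4 cytosolic enzymes were at least 2-fold lower in both (background 1.38%). At a looser limit of 80% of the control, 12 cytosolic enzymes were lower with the first shRNA, 9 with the second and 9 with both, against 20.4%, 21.3% and 12.4% of all genes. No enzyme of either set was 1.5-fold higher in both libraries, against 4.23% of all genes.

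**Figure D1:**
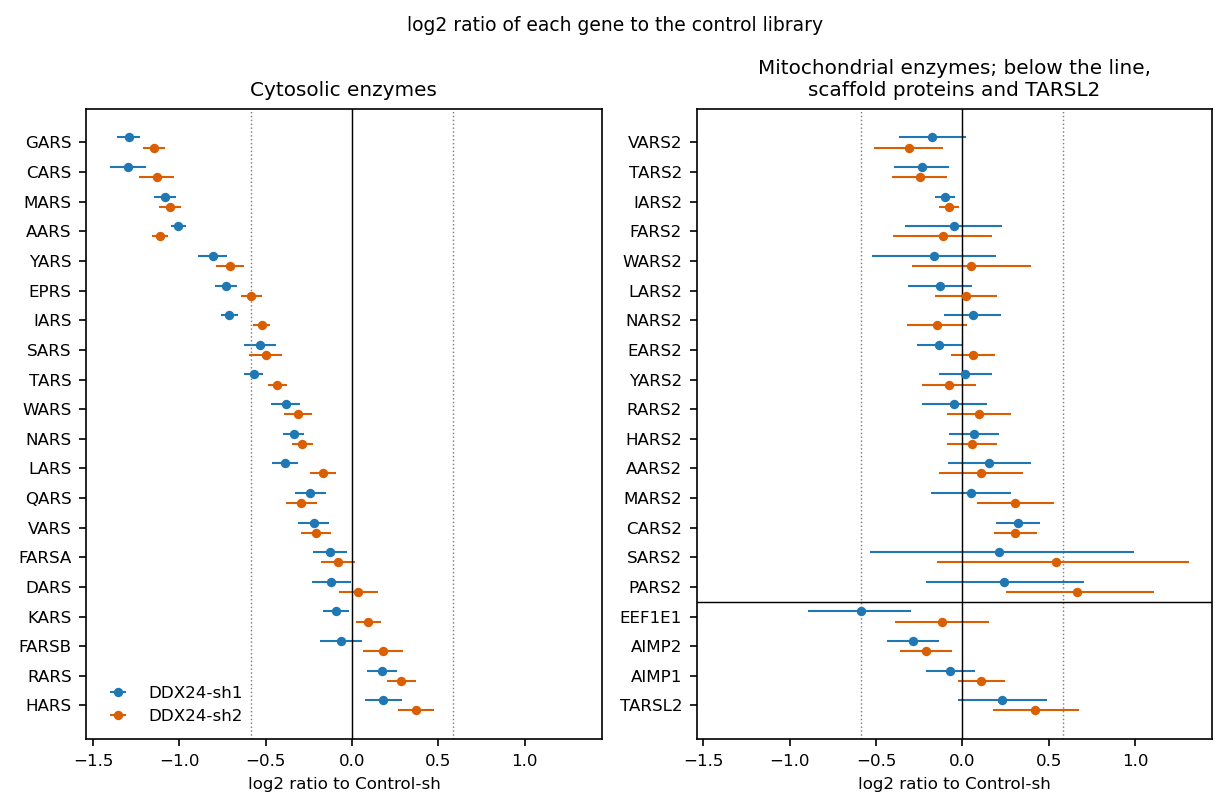
log2 ratio to Control-sh (x axis) of each of the 40 genes in DDX24-sh1 (blue) and DDX24-sh2 (orange). Bars are exact 95% intervals from the counts, dotted lines mark 1.5-fold, and GARS, CARS, MARS and AARS lie lowest among the cytosolic enzymes, at -1.01 or below in both libraries.

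The 4 enzymes that were 2-fold lower in both libraries charge glycine, cysteine, methionine and alanine. GARS, the glycyl enzyme (ENSG00000106105, chr7:30594681-30634033, plus strand), had 5989, 2621 and 2862 counts. It stood at -1.29 (-1.36 to -1.23) and -1.15 (-1.21 to -1.08) on the log2 scale, or 40.8% and 45.2% of the control. CARS, the cysteinyl enzyme (ENSG00000110619, chr11:3000922-3057613, minus strand), had 2371, 1034 and 1145 counts. At -1.30 (-1.40 to -1.19) and -1.13 (-1.23 to -1.03) on the log2 scale, CARS lay close to GARS.

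MARS, the methionyl enzyme that also charges the initiator tRNA (ENSG00000166986, chr12:57475445-57517569, plus strand), had 6030, 3052 and 3069 counts, with log2 ratios of -1.08 and -1.05. The shRNA libraries were thus nearly equal for MARS, and both lay far below the control. MARS shares 355 exonic bases with DDIT3 on the opposite strand, and DDIT3 had 898, 76 and 64 counts. The part of shared reads in the MARS ratio was not tested, since the use of strand in counting is not given in the sources used here. AARS, the alanyl enzyme (ENSG00000090861, chr16:70252295-70289543, minus strand), had 11863, 6333 and 5804 counts, and log2 ratios of -1.01 and -1.11. AARS had the highest level per length of all 40 genes in Control-sh, 155 RPKM (CPM per kilobase of gene length), and stood at 49.8% and 46.3% of the control in the shRNA libraries.

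A second tier of cytosolic enzymes was lower by a smaller factor. YARS, the tyrosyl enzyme, had 3139, 1921 and 2033 counts and log2 ratios of -0.81 and -0.71, and was the fifth enzyme past 1.5-fold in both libraries. EPRS, which joins the glutamyl and prolyl enzymes in a single protein, had 5376, 3474 and 3793 counts. Its log2 ratios of -0.73 and -0.58 lay beyond and just short of 1.5-fold. IARS, the isoleucyl enzyme, had 8265, 5411 and 6078 counts and log2 ratios of -0.71 and -0.52. SARS, the seryl enzyme, had 2188, 1621 and 1635 counts, with ratios of -0.53 and -0.50, and TARS, the threonyl enzyme, had 6097, 4400 and 4774 counts, with ratios of -0.57 and -0.43. For all of these enzymes both shRNA libraries lay below the control by more than counting error.

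WARS (-0.38 and -0.31), NARS (-0.34 and -0.29), LARS (-0.39 and -0.17), QARS (-0.24 and -0.29) and VARS (-0.22 and -0.21), which charge tryptophan, asparagine, leucine, glutamine and valine, were lower by less than 1.5-fold. In all, 14 of the 20 cytosolic enzymes had intervals below 0 in both libraries, against 20.6% of all genes. Intervals narrow with depth. The lowest mean CPM in the cytosolic set was 65.0 (FARSB), while all genes include those down to 1. The part of depth in such interval counts was not tested. The other six, KARS, DARS, FARSA, FARSB, RARS and HARS, did not. KARS, the lysyl enzyme, had 2752, 2767 and 3109 counts, with log2 ratios of -0.09 and 0.10. DARS, the aspartyl enzyme, had 1274, 1257 and 1382 counts, with ratios of -0.12 and 0.04.

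The subunits of the cytosolic phenylalanyl enzyme stayed close to the control. FARSA, its alpha subunit, had 1681, 1649 and 1681 counts and stood at log2 -0.13 (-0.23 to -0.03) and -0.08 (-0.18 to 0.02). FARSB, its beta subunit, had 1077, 1105 and 1289 counts and ratios of -0.06 (interval -0.19 to 0.06) and 0.18 (interval 0.06 to 0.30). RARS, the arginyl enzyme, and HARS, the histidyl enzyme, had intervals above 0 in both libraries, which makes 2 of 20 cytosolic enzymes against 14.0% of all genes. RARS had 1957, 2365 and 2524 counts, with ratios of 0.17 and 0.29, and HARS had 1325, 1610 and 1813 counts, with ratios of 0.18 and 0.37. Cytosolic log2 ratios thus spanned -1.30 to 0.18 for the first shRNA and -1.15 to 0.37 for the second. HARS shares 221 exonic bases with WDR55 on the opposite strand, which had 742, 1072 and 988 counts. It also shares 437 with HARS2 on that strand, which had 760, 853 and 836 counts. The part of shared reads in the HARS ratios was not tested.

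Summed over genes, the cytosolic enzymes held 75903, 53049 and 55854 counts. This was 0.441%, 0.289% and 0.313% of all counts. The log2 ratios of these sums stood at -0.62 (-0.63 to -0.60) and -0.52 (-0.54 to -0.51), lower than the medians over genes, the abundant AARS and GARS being among the lowest. The mitochondrial enzymes held 11718, 12247 and 12315 counts, with sums at log2 -0.04 (-0.07 to 0.00) and -0.01 (-0.05 to 0.03). Both intervals of the mitochondrial sum reached 0.

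**Figure D2:**
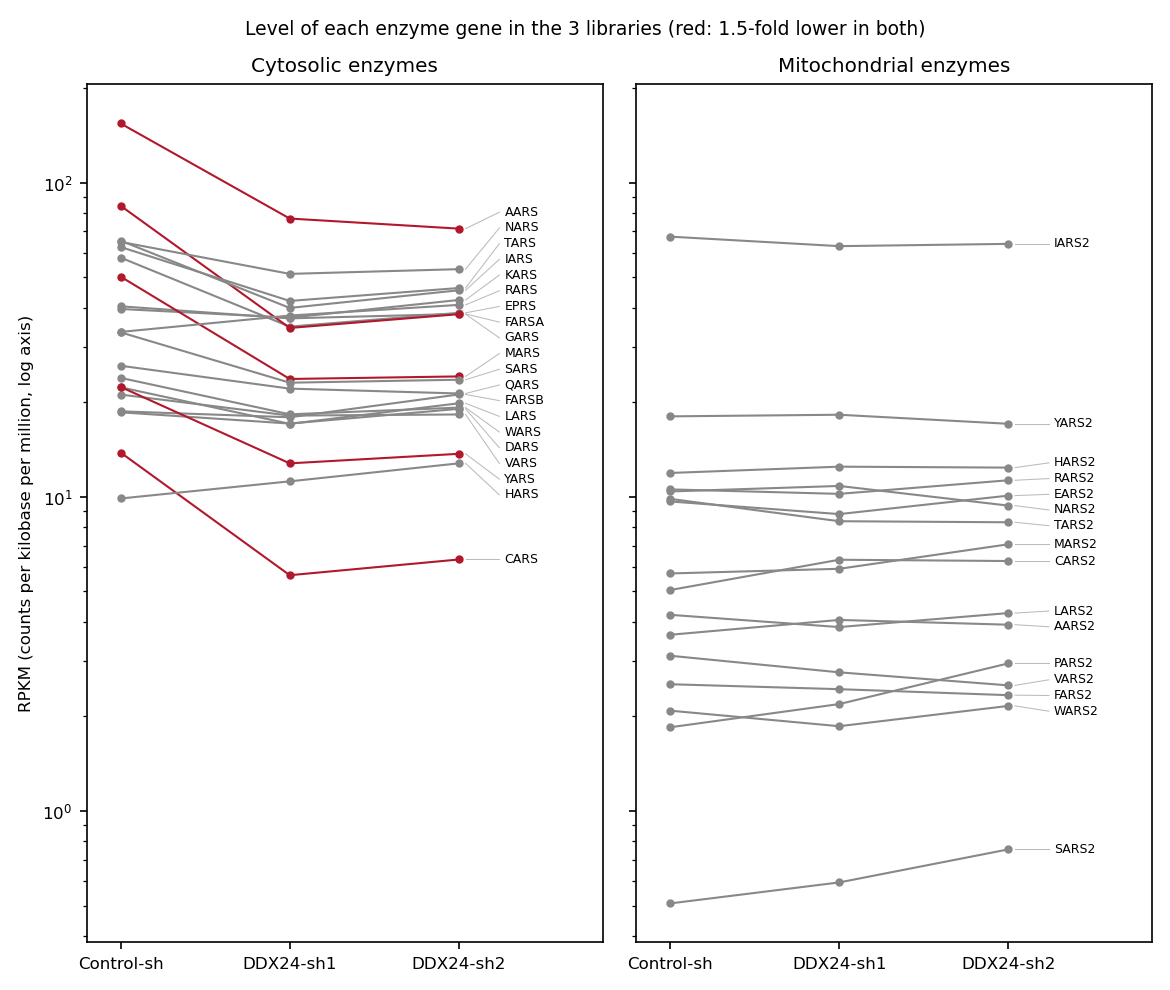
Level of each cytosolic (left) and mitochondrial (right) enzyme gene in RPKM on a log axis in the 3 libraries, 1 line per gene. The red lines are GARS, CARS, MARS, AARS and YARS, at least 1.5-fold lower in both shRNA libraries, and no mitochondrial line is red.

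The mitochondrial enzymes scattered around 0. In DDX24-sh1, 8 of the 16 lay below the control and 8 above it, and in DDX24-sh2, 6 lay below and 10 above. Of all genes, 52.6% and 53.0% lay below the control. TARS2, the mitochondrial threonyl enzyme, had 686, 624 and 611 counts and stood at -0.24 (-0.40 to -0.08) and -0.25 (-0.41 to -0.09) on the log2 scale. VARS2, the valyl enzyme, had 450, 427 and 383 counts and ratios of -0.17 (interval -0.37 to 0.02) and -0.31 (interval -0.51 to -0.11). VARS2 shares 22.0% of its exonic bases with GTF2H4 on the same strand, which had 0, 0 and 1 counts. Whether reads there were left uncounted was not tested. IARS2, the isoleucyl enzyme, had 4792, 4790 and 4806 counts and ratios of -0.10 and -0.08, nearly flat at the highest level of the mitochondrial set. Intervals below 0 in both libraries were found for 2 of the 16, TARS2 and IARS2, no larger a share than the 20.6% of all genes.

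On the other side, CARS2, the mitochondrial cysteinyl enzyme, had 902, 1207 and 1180 counts. At log2 0.32 (0.19 to 0.45) and 0.31 (0.18 to 0.43) it was 1 of 16 mitochondrial enzymes with intervals above 0 in both, against 14.0% of all genes. PARS2, the prolyl enzyme, rested on 74, 94 and 125 counts, with ratios of 0.24 (interval -0.21 to 0.70) and 0.66 (interval 0.25 to 1.11). SARS2, the seryl enzyme, had 28, 35 and 44 counts, too few to place either ratio apart from 0. Its annotated exons are covered for 46.2% by AC011455.2, a gene on the same strand with 0 counts in every library, and whether reads there were left uncounted was not tested. SARS2 also shares 349 exonic bases with MRPS12 on the opposite strand, which had 3257, 4213 and 3833 counts. The part of shared reads in the SARS2 ratios was not tested. The remaining 10 mitochondrial enzymes, AARS2, EARS2, FARS2, HARS2, LARS2, MARS2, NARS2, RARS2, WARS2 and YARS2, had ratios between -0.16 and 0.31.

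The distance between the sets was similar in both libraries. The cytosolic median lay below the mitochondrial one by log2 differences of -0.37 and -0.36, and library scaling cancels in these differences. In DDX24-sh1, 13 of the 20 cytosolic enzymes lay below every mitochondrial enzyme, and in DDX24-sh2, 10 did. The lowest mitochondrial ratios were -0.24 and -0.31, and the lower quartiles of all 13984 genes were -0.26 and -0.27. Many genes outside the cytosolic set therefore also lay below every mitochondrial enzyme, and their exact share was not counted. No cytosolic enzyme lay above all mitochondrial ones in either library. DARS, KARS, FARSA, FARSB, RARS, HARS and VARS lay within the mitochondrial range in both libraries, joined by LARS, NARS and QARS in DDX24-sh2. Most mitochondrial genes rest on fewer counts, so their intervals are wider, and the part of depth in the difference between the sets was not tested. The share of counts from the mitochondrial genome itself was 4.36%, 5.13% and 7.04%, and its part in these ratios was not tested.

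The enzymes of each amino acid were next set against each other. For 16 amino acids, 17 pairs of a cytosolic and a mitochondrial gene could be formed, EPRS being paired with EARS2 and with PARS2, and FARSA and FARSB each with FARS2. The cytosolic to mitochondrial count ratio was below its control value beyond the 95% interval in 11 and 10 of the pairs. Of these, 9 were below it in both libraries, and 1 pair in each library was above it. No share over other pairs of genes was counted. As the mitochondrial medians lay near the control, these counts largely restate the cytosolic ratios. The median change over pairs was -0.40 and -0.36 in log2 units. CARS to CARS2 changed most, by -1.62 (interval -1.78 to -1.45) and -1.44 (interval -1.60 to -1.28).

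The alanyl pair AARS to AARS2 changed by -1.16 and -1.22, and the methionyl pair MARS to MARS2 by -1.13 and -1.36. The tyrosyl pair YARS to YARS2 changed by -0.83 and -0.63, and the isoleucyl pair IARS to IARS2 by -0.61 and -0.45. No change beyond counting error was seen in either library for valine (VARS to VARS2, -0.05 and 0.10) or for phenylalanine (FARSA to FARS2, -0.08 and 0.03). The other phenylalanine pair, FARSB to FARS2, stood at -0.01 (-0.31 to 0.29) and 0.29 (-0.01 to 0.60), the second interval barely reaching 0. The histidyl pair HARS to HARS2, whose genes lie head to head and share 437 exonic bases on opposite strands, changed by 0.11 (interval -0.06 to 0.29) and 0.31 (interval 0.14 to 0.49). The arginyl pair RARS to RARS2 changed by 0.22 (interval 0.02 to 0.42) and 0.19 (interval -0.01 to 0.39). Pairs that share EPRS or FARS2 are not independent of each other.

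**Figure D3:**
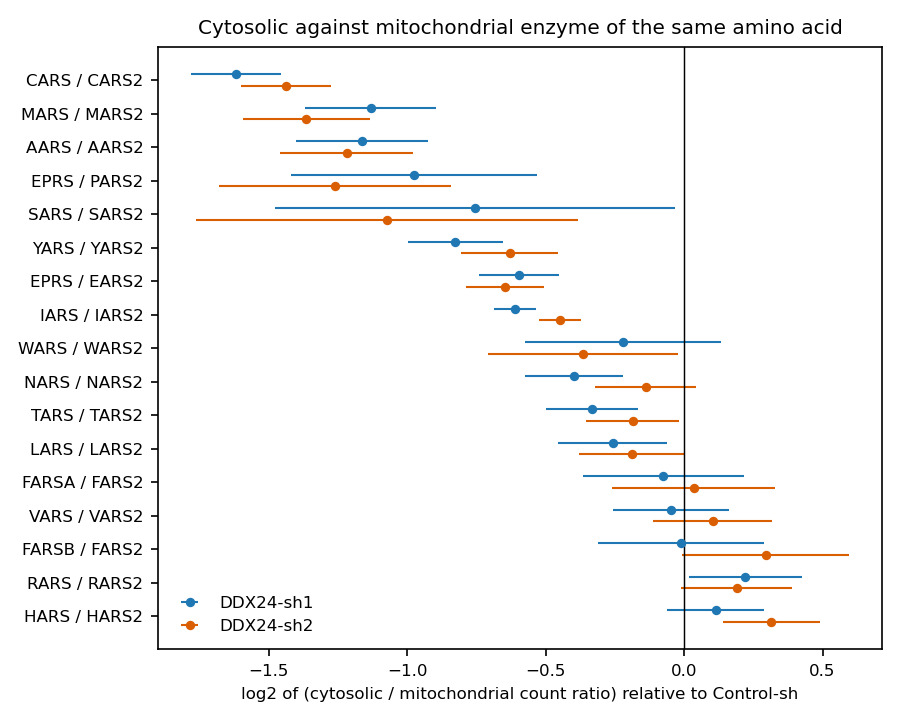
Change in the cytosolic to mitochondrial count ratio relative to Control-sh (x axis, log2) for the 17 pairs in DDX24-sh1 (blue) and DDX24-sh2 (orange), with 95% intervals from the 4 counts. CARS to CARS2 lies farthest left at -1.62 and -1.44, and HARS to HARS2 and RARS to RARS2 lie right of 0.

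Levels per length differed between the sets before any comparison with the shRNAs. In Control-sh the cytosolic enzymes had a median of 33.5 RPKM, from 9.89 for HARS to 155 for AARS, and the mitochondrial enzymes a median of 5.38 RPKM, from 0.508 for SARS2 to 67.4 for IARS2. IARS2 was the exception in the mitochondrial set, rank 3 of the 40 genes, beside IARS at 65.4 RPKM. The cytosolic gene had the higher level in 15 of the 17 pairs, and the median factor over pairs was 6.34, 4.73 and 5.57 in the 3 libraries. For cysteine the level of CARS was 2.74, 0.893 and 1.01 times that of CARS2. For tyrosine the YARS level went from 1.24 times that of YARS2 to 0.700 and 0.802 times.

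Within the cytosolic set, the enzymes of the multisynthetase complex were set against the others. The 8 complex enzymes (DARS, EPRS, IARS, KARS, LARS, MARS, QARS and RARS) had median log2 ratios of -0.31 and -0.23, and the 12 enzymes outside it -0.46 and -0.37. Of the 4 enzymes that were 2-fold lower in both libraries, MARS was the only one in the complex. The ranges of the complex enzymes (-1.08 to 0.17 and -1.05 to 0.29) and of the others (-1.30 to 0.18 and -1.15 to 0.37) overlapped almost wholly. The scaffold proteins are only 3 genes and are given singly. AIMP1 had 798, 814 and 911 counts, with ratios of -0.07 and 0.11, and AIMP2 had 752, 661 and 687 counts, with ratios of -0.29 (interval -0.44 to -0.13) and -0.21 (interval -0.36 to -0.06). AIMP2 shares 532 exonic bases, 28.9% of its length, with EIF2AK1 on the opposite strand, which had 4044, 3826 and 3832 counts.

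EEF1E1, the smallest scaffold protein, was the member whose shRNA libraries differed most, with 231, 164 and 225 counts. It stood at log2 -0.59 (-0.89 to -0.30) for the first shRNA and -0.12 (-0.39 to 0.15) for the second. EEF1E1 shares 18.7% of its exonic bases with EEF1E1-BLOC1S5 on the same strand, which had 0 counts in every library. Whether reads there were left uncounted was not tested. TARSL2, related in sequence to TARS, had 229, 288 and 325 counts, with ratios of 0.23 (interval -0.02 to 0.49) and 0.42 (interval 0.18 to 0.67), on the other side of the control from TARS. By structural class of the catalytic domain, the 10 class I enzymes had medians of -0.55 and -0.42 and the 10 class II enzymes -0.23 and -0.18. EPRS, the joined glutamyl and prolyl enzyme, was counted with class I only. The sums of counts did not separate the classes, at -0.62 and -0.51 for class I and -0.61 and -0.54 for class II, which holds AARS and GARS.

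The shRNA libraries can be compared with each other without the control. On the log2 scale, DDX24-sh2 over DDX24-sh1 had a median of 0.12 over the 20 cytosolic enzymes and of 0.0070 over the mitochondrial ones. The interval lay above 0 for 12 of the 20 cytosolic enzymes and below 0 for 1, AARS, at -0.11, against 23.5% above and 28.5% below among the 9661 genes whose mean CPM was at least 10. Single cytosolic enzymes differed by -0.11 to 0.24, with an SD over genes of 0.0916, against an SD of 0.264 over those 9661 genes. The SD over the mitochondrial enzymes was 0.178. The lowest mean CPM in the cytosolic set was 65.0 (FARSB), while those 9661 genes go down to 10. The part of depth in these SDs was not tested. For GARS, CARS, MARS, AARS, YARS, EPRS, IARS, SARS and TARS the distance of either library from the control exceeded the distance between the shRNA libraries. These were the enzymes with the largest fall, so that outcome was nearly fixed by the choice. The same held for WARS, NARS, QARS, VARS, FARSA and RARS, and not for DARS, FARSB, HARS, KARS and LARS. The share over all genes was not counted, and both distances from the control use the same control library.

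The promoter matches were then set beside the ratios. The 6 cytosolic genes with the strict element had medians of -0.86 and -0.79 on the log2 scale, ranging from -1.30 to -0.34 and from -1.13 to -0.29. GARS, with the looser form alone, lay at -1.29 and -1.15. The 9 cytosolic genes with a window and no match had medians of -0.13 and -0.08, ranging from -0.73 to 0.18 and from -0.58 to 0.37. The groups overlapped: EPRS, SARS and WARS had no match and were lower in both libraries than NARS, which held the strict form. EPRS was also lower in both than IARS and TARS, which held it too. The 4 cytosolic genes without a listed window (DARS, LARS, VARS and YARS) ranged from -0.81 to -0.12 and from -0.71 to 0.04. Among all other genes whose mean CPM was at least 1, 71 held the strict form, with medians of -0.21 and -0.19 (quartiles -0.60 to 0.08 and -0.63 to 0.05), and the 10284 with a window and no match had medians of -0.03 and -0.03. Of those 71 genes, 29.6% and 26.8% were at least 1.5-fold lower, against 7.32% and 8.63% of the 10284. The strict form and a low ratio did not always go together. In the gene lists described here outside the cytosolic set, the strict form was found for SEPHS1 (log2 ratios of 0.09 and 0.19), a selenophosphate synthetase gene, for the ribosomal protein gene RPS23 (0.19 and 0.0083) and for CHAC1 (-2.90 and -4.28), a glutathione-degrading enzyme. CHAC1 was the only one of 13 ATF4 and amino acid response genes with a window that held the strict form, and 4 of the 13 held the looser form. Absence of the letters from a window says nothing of sites elsewhere.

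Other genes on the path from tRNA to ribosome were measured from lists written with earlier results of these data known. Of all genes, 4.72% were at least 1.5-fold lower in both libraries and 4.23% higher, so a count of 0 or 1 in lists as short as these (10 genes at most) says little about a list. XPOT, the exportin that carries tRNA out of the nucleus, was the only one of 9 tRNA maturation and export genes at least 1.5-fold lower in both libraries (background 4.72%). It had 5647, 3089 and 3256 counts and stood at log2 -0.97 (-1.03 to -0.91) and -0.87 (-0.94 to -0.81), between AARS and YARS among the cytosolic enzymes. TSEN15, a subunit of the tRNA splicing endonuclease, had 770, 531 and 620 counts and ratios of -0.63 and -0.39. The other seven genes of that list had ratios between -0.51 and 0.56. The amidotransferase genes QRSL1, GATB and GATC, which convert glutamate to glutamine on mitochondrial tRNA, had ratios between -0.27 and 0.07, with none past 1.5-fold. GATB had 271, 293 and 301 counts and GATC had 551, 604 and 604.

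SEPSECS, which makes selenocysteine on its tRNA, had 161, 85 and 103 counts, or 49.3% and 60.5% of the control, and was the only one of 6 selenocysteine genes past 1.5-fold in both libraries (background 4.72% lower). SEPHS1 had 1331, 1521 and 1607 counts and log2 ratios of 0.09 and 0.19. Of 3 tRNA proofreading genes, DTD1 (341, 410 and 426 counts, 0.17 and 0.24) and DTD2 (583, 624 and 574 counts, -0.0018 and -0.10) passed 1 CPM and neither passed 1.5-fold. Among the elongation factors that bring charged tRNA to the ribosome or move it along, EEF2 was lower, with 40273, 29781 and 28614 counts and ratios of -0.54 and -0.57, and EEF1A2 was higher, with 3311, 4266 and 4597 counts and ratios of 0.27 and 0.39. EEF1G was listed with 0 counts in all 3 libraries, and 99.9% of its exonic bases are shared with AP002990.1 on the same strand. Of 10 mitochondrial translation factors, 0 were 1.5-fold lower in both libraries (background 4.72%). Their medians were -0.06 and -0.06. Intervals lay below 0 in both libraries for 3 (MTIF2, MRRF and TUFM) and above 0 for 2, against 20.6% and 14.0% of all genes. MTFMT, which formylates the initiator tRNA of mitochondria, was higher at 5.79, 8.25 and 8.86 RPKM, with log2 ratios of 0.51 and 0.61. GFM2, which acts in recycling mitochondrial ribosomes, had 852, 1193 and 1219 counts and ratios of 0.39 and 0.44.

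Ribosomal proteins served as a reference for each compartment. The 77 mitochondrial ribosomal protein genes whose mean CPM was at least 1 had medians of -0.0011 and 0.04 on the log2 scale, and the 82 cytosolic ones -0.02 and -0.02. No gene of either list was 1.5-fold lower in both libraries, against 4.72% of all genes. MRPL39 (255, 358 and 331 counts, 0.39 and 0.29) and MRPS22 (334, 437 and 490 counts, 0.29 and 0.47) had the largest changes shared by both libraries in the mitochondrial list, and RPL36A (0.59 and 1.18, from 42, 69 and 103 counts) and RPL39L (311, 270 and 256 counts, -0.30 and -0.36) in the cytosolic list. Of 17 genes of the ATF4 and amino acid response, a list written because its genes were known to be low here, 14 were at least 1.5-fold lower in both libraries (background 4.72%), with medians of -1.20 and -1.12. DDIT3, a stress-induced transcription factor, lay at -3.63 and -3.85, and ATF3, another, at -2.92 and -3.60. EIF2AK4, which encodes GCN2, was the only one of the 17 above the control, with 1110, 1508 and 1410 counts and ratios of 0.34 and 0.26. PHGDH, the entry enzyme of serine synthesis, had 2251, 816 and 797 counts, below the range of any synthetase in log2 ratio at -1.56 and -1.58.

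**Figure D4:**
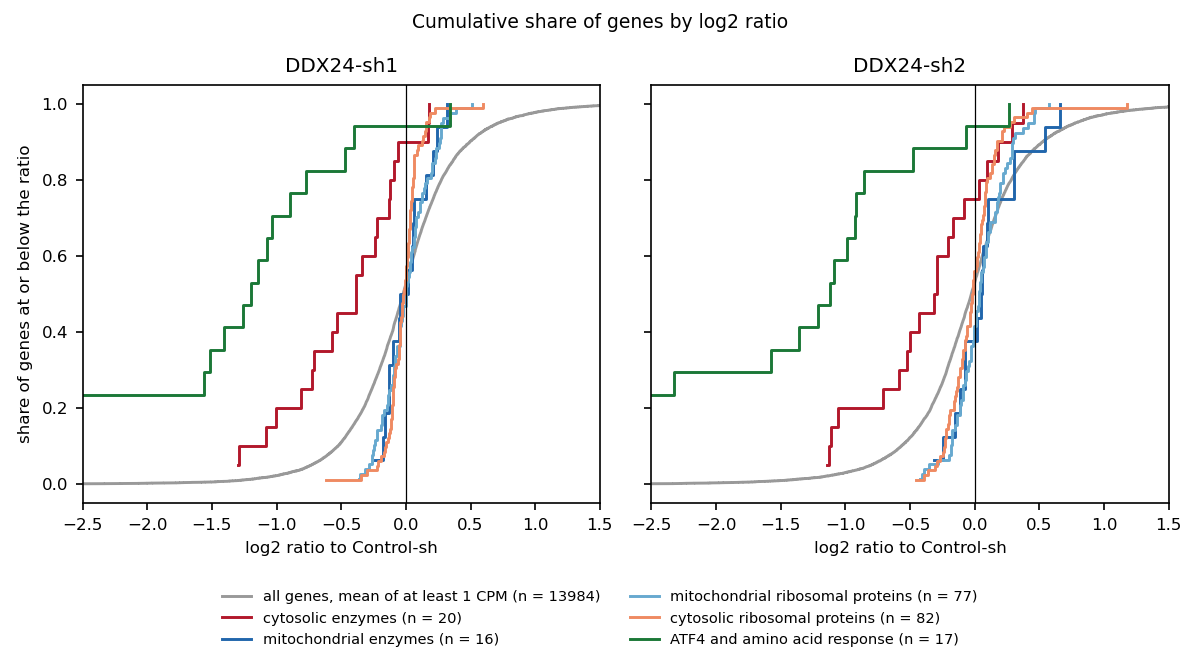
Cumulative share of genes (y axis) at or below each log2 ratio to Control-sh (x axis) in DDX24-sh1 (left) and DDX24-sh2 (right), for all 13984 genes, the enzyme sets, ribosomal proteins and the ATF4 list. The cytosolic enzymes (medians -0.39 and -0.30) lie between the ATF4 list (-1.20 and -1.12) and the mitochondrial enzymes (-0.02 and 0.05).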

How the data were processed

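RNA from 3 A549 libraries was sequenced by the authors, 1 library per condition. The authors deposited raw counts per gene and FPKM values per gene. The submitters' processing notes list Bowtie2 2.0.6, TopHat2 2.0.9, Cufflinks 2.1.1 and Cuffdiff 2.1.1 without roles, and the counter and the use of strand are not given in the sources used here. All 58735 genes match GENCODE 29 (GRCh38) in identifier, start and end.

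Counts were scaled with TMM (R 4.3.3, edgeR 4.0.16) and log2 CPM was taken with a prior count of 2. Reads are not independent molecules, so intervals cover counting error only. RPKM was computed from the scaled counts and the deposited gene length. No model was fitted and no p-value computed. A count of genes past a limit means past 1.5-fold or 2-fold, beside the same count over all genes whose mean CPM was at least 1. Intervals of pairs are Wald intervals on 4 counts. Overlaps were taken from GENCODE 29 exons. Promoter windows were read from a RefSeq table (GRCh38.p14). The ratio and interval steps were tested on simulated data.

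The members and the gene lists were chosen with earlier results of these data known. Named by rule were the 8 cytosolic enzymes lowest in the library with the smaller change, the 4 with the smallest change, the 3 mitochondrial enzymes lowest and the 3 highest, and the 2 most changed genes of each other list. All other genes named here were chosen after their values were seen. Proteins were not compared, since no protein table was used here. Alternatives were DESeq2 1.42.0 size factors, total counts, a prior count of 0.5, the deposited FPKM as log2(FPKM + 0.1), a minimum mean of 10 CPM, summed counts, amino acids with both enzymes, members without overlap on the opposite strand, and a limit of 80% of the control. The FPKM with exchanged labels, and the ratios of all genes by promoter match, were chosen after seeing the data. Plots were made in Python 3.11.15 with matplotlib 3.10.9.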

Additional observations from a re-analysis of the deposited data

How the results depend on the processing

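Scaling by DESeq2 size factors or total counts and a prior count of 0.5 moved no gene's ratio by more than the half-width of its counting interval, no median by more than the median half-width of its members, and no count by over 1.5 times. The median of all genes stayed between -0.03 and 0.0029 under these scalings. With the deposited FPKM under its given labels, the log2 ratios of DDX24 were -1.45 and -1.72 (first and second shRNA), 36 of 80 member ratios moved by more than that half-width, and the cytosolic median was -0.29 in DDX24-sh1. With the labels exchanged, a choice made after seeing the data, no value moved beyond these limits. Summed counts in place of the median over genes gave -0.62 and -0.52 for the cytosolic set and -0.58 and -0.51 for its difference from the mitochondrial set. At a limit of 80% of the control in place of 1.5-fold, 12 cytosolic enzymes were lower with the first shRNA, 9 with the second and 9 with both, against 20.4%, 21.3% and 12.4% of all genes. A mean of at least 10 CPM, amino acids with both enzymes, and the 10 cytosolic enzymes without opposite-strand overlap moved no median by more than that half-width. No paired analysis was possible because each condition has 1 library, and no library could be left out. Counts limit SARS2, PARS2 and WARS2 most.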
